A study of Rattus norvegicus with 6 samples.

Results

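The Hippo pathway, its effectors YAP and TAZ and a group of their target genes were followed in C6 glioma cells with and without overexpression of AQP1. The genes were chosen by symbol as 10 well-known members of the pathway, and all 10 were among the 12121 genes listed in the count files. They were 7 kinases and factors (Nf2, Stk3, Lats1, Lats2, Yap1, Wwtr1 and Tead1) and 3 targets (Ctgf, Cyr61 and Amotl2). C6 is an established rat glioma line, and AQP1 (aquaporin 1) lets water cross cell membranes. Sequenced were 3 libraries of C6-AQP1 cells, in which an AQP1 sequence in a pCDH vector with a CMV promoter, GFP and a puromycin marker had been introduced, and 3 libraries of C6 control cells without AQP1 overexpression, and both were grown with serum. For its other assays the study names a control line after the pCDH vector, while the labels of the sequenced libraries say only control. In its text the study calls the sequenced samples C6 and C6-AQP1, and writes of their difference as before and after AQP1 overexpression. Whether the sequenced control cells carried the vector could not be settled. An effect of the vector could thus not be told apart from one of AQP1. The sources used here do not say whether the C6-AQP1 cells were 1 clone or a pool, or whether a group's libraries were made from separate cultures. The p-values therefore reflect only how far these libraries spread, and part of that spread may be technical.

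The Hippo pathway is a chain of kinases that restrains growth. The kinase MST2, encoded by Stk3, acts with the scaffold merlin, encoded by Nf2, to switch on the kinases LATS1 and LATS2, which phosphorylate YAP and TAZ and keep them out of the nucleus. When the kinases are quiet, YAP and TAZ enter the nucleus, bind the TEAD factors on DNA and switch on genes such as Ctgf and Cyr61, which encode secreted matrix proteins of the CCN family, and Amotl2, which encodes an angiomotin that binds YAP. The pathway is regulated largely by phosphorylation, which RNA counts do not measure. In gliomas, YAP and TAZ are known for their links to growth and to a mesenchymal state.

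The 3 targets all carried the letters that TEAD factors recognise just before their start, although Ctgf went one way and Cyr61 and Amotl2 the other. Their promoters are shown for this reason, as the 250 bases before the annotated gene start, written 5′ to 3′ on the strand of the gene. Capitals mark the letters GGAATG or their reverse complement CATTCC, which were searched on both strands. The sequences were taken from RefSeq on the GRCr8 build, which is another build than the rn6 genome of the alignment, and lie at chr1:22624615-22624864 (minus strand) for Ctgf, at chr2:237225690-237225939 (minus strand) for Cyr61 and at chr8:112182376-112182625 (plus strand) for Amotl2. RefSeq names Ctgf and Cyr61 Ccn2 and Ccn1.
Ctgf: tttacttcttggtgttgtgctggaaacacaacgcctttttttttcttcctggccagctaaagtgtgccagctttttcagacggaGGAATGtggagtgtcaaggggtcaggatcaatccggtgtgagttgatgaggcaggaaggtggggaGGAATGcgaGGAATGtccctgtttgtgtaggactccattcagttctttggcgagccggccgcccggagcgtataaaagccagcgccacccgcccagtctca
Cyr61: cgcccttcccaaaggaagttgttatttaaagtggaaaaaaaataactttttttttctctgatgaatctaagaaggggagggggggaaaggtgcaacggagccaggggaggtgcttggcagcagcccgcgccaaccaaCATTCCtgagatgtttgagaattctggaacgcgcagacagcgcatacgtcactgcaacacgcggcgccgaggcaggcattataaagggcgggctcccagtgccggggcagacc
Amotl2: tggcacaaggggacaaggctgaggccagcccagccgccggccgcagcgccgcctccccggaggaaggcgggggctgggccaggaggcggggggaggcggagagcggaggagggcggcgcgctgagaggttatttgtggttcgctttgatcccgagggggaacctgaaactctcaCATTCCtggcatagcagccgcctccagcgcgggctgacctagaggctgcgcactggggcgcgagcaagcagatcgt

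The Ctgf promoter held 3 matches, which began 166, 101 and 92 bases before the start. The Cyr61 promoter held 1 match, beginning 113 bases before the start, and the Amotl2 promoter held 1, beginning 76 bases before it. Of the 33469 rat promoters of this length in the table, 12.1% held at least 1 match, 0.902% at least 2 and 0.0807% at least 3. Among the 7 members with a promoter in the table, which did not include Tead1, Lats2 or Stk3, a match was also found for Yap1, beginning 116 bases before its start. A match in these letters is a description and does not show that a TEAD factor was bound.

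Library totals ranged from 19054251 to 52725877 expected counts, and the replicate 1 libraries of both groups were the shallowest. Members had between 702 and 53435 counts in a library, so none was near the limit of detection. Aqp1 (ENSRNOG00000011648), the overexpressed gene, had 1052, 1064 and 1057 normalized CPM in C6-AQP1 cells and 347, 352 and 349 in C6 control cells, in the order of the replicates. Every C6-AQP1 library was therefore above every control library for the introduced gene, in the direction of the labels. Of 6 astroglial markers, 5 were listed, and their summed level was 5472 to 5674 CPM in C6-AQP1 cells and 3746 to 3822 CPM in C6 control cells. By the study's methods, genes below a mean TPM of 1 in both groups were left out of the files, so a marker that is not listed may still have had a few reads. Of 6 endothelial markers none was listed, and of 6 microglial markers only P2ry12, with 6.56 to 7.09 CPM in C6-AQP1 cells and 2.84 to 3.07 CPM in C6 control cells. Of 6 neuronal markers 4 were listed (303 to 310.5 CPM in C6-AQP1 cells and 119 to 122 CPM in C6 control cells, summed), but not Rbfox3 and Stmn2. Of these 4, 3 were higher in C6-AQP1 cells and 1 was lower. Named after their values were seen, Map2 held most of the sum (means of 254 CPM against 81.8 CPM). Syn1 was the lower one (0.972 CPM against 2.84 CPM). Of 6 oligodendrocyte markers 4 were listed (1160 to 1168 CPM in C6-AQP1 cells and 616 to 619 CPM in C6 control cells, summed), but not Mag and Mobp. The part of these marker differences in the results given here was not tested. In such bulk libraries, fewer cells of a kind and less RNA per cell cannot be told apart.

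All 10 members differed between the groups at an adjusted p under 0.05, with 7 higher and 3 lower in C6-AQP1 cells, in edgeR's quasi-likelihood fit with Benjamini-Hochberg adjustment over all genes. This share says little about the pathway, because 81.5% of all 12121 genes passed the same bar, 40.8% as rises and 40.7% as falls. For all 10 members the libraries of the groups did not overlap, as for 82.5% of all genes. In size, most members changed little. The median absolute log2 fold change was 0.36 over the 10 members and 0.43 over all genes, and only Ctgf and Cyr61 changed by more than 2-fold, a bar that 14.1% of all genes passed (9.74% higher and 4.35% lower). The kinases and factors had log2 fold changes between -0.45 and 0.64, while the targets spanned -1.71 to 1.14.

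**Figure D1:**
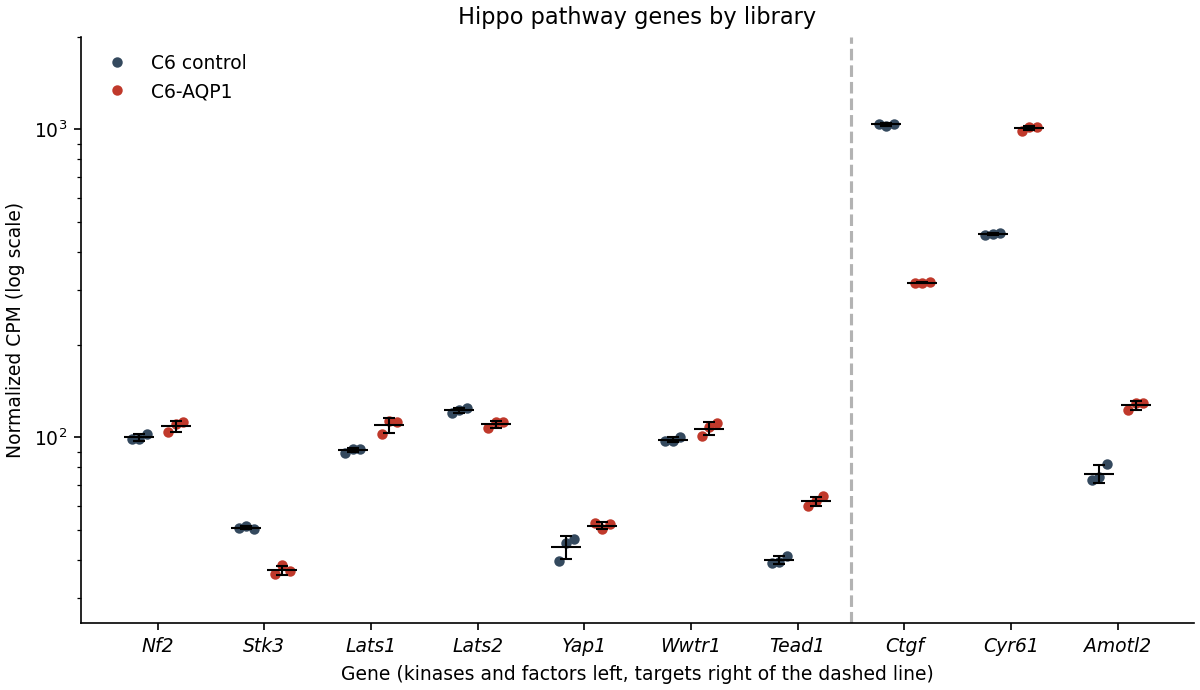
Normalized CPM (log scale) of the 10 genes in each library, with C6 control in dark blue and C6-AQP1 in red. Points are libraries, black bars the group mean with its SD (n = 3), and the dashed line parts the kinases and factors from the targets. Ctgf is near 1039 CPM in C6 control and 318 CPM in C6-AQP1 cells, and Cyr61 goes the opposite way.

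Ctgf (ENSRNOG00000015036), which encodes the connective tissue growth factor, had 1044, 1029 and 1045 normalized CPM in C6 control replicates 1, 2 and 3 and 318, 317 and 320.3 CPM in the C6-AQP1 replicates. The libraries within a group lay within a few percent of each other, and the groups were 708 CPM apart at their nearest libraries. The fall was 3.26-fold, a log2 fold change of -1.71 with a standard error of 0.02 (adjusted p = 3.0e-25, edgeR quasi-likelihood test). Of all genes, 5.22% had a larger absolute log2 fold change.

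Cyr61 (ENSRNOG00000014350), which encodes a secreted matricellular protein, moved the other way. It had 455, 459 and 462 normalized CPM in C6 control replicates 1, 2 and 3 and 990.3, 1022 and 1018 CPM in the C6-AQP1 replicates. Every C6-AQP1 library was above every control library, with the nearest of them 528 CPM apart. The rise was 2.20-fold, a log2 fold change of 1.14 with a standard error of 0.02 (adjusted p = 2.3e-22, edgeR quasi-likelihood test), and 11.8% of all genes had a larger absolute change. Amotl2 (ENSRNOG00000008487), an angiomotin of cell junctions, had 72.5, 74.4 and 81.8 CPM in C6 control cells and 123, 129 and 129 CPM in C6-AQP1 cells. Its groups did not overlap either. The rise of Amotl2 was 1.66-fold, a log2 fold change of 0.73 with a standard error of 0.04 (adjusted p = 6.3e-10, same test), and 26.6% of all genes changed more.

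The change of Ctgf relative to Cyr61 can be read inside each library, where it does not depend on how libraries are scaled. Such a ratio alone does not show which gene moved, or that they moved in opposite directions. The ratio of Ctgf to Cyr61 counts was 2.29, 2.24 and 2.26 in C6 control replicates 1, 2 and 3 and 0.321, 0.310 and 0.315 in the C6-AQP1 replicates. Transcripts of unequal length give unequal counts, so only the change of this ratio between groups is read. It was 7.18-fold lower in C6-AQP1 cells, a difference of -2.84 on the log2 scale, against SDs of 0.03 (C6-AQP1) and 0.02 (C6 control). An exact permutation test of 3 libraries against 3, two-sided, gave p = 0.10, the smallest value that this design allows. The same test gives the same p to every ratio whose groups do not overlap, whatever the size of the difference. Ctgf was lower and Cyr61 higher in every C6-AQP1 library, so their ratio had to part the groups. Its p therefore adds nothing to the values of the genes.

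**Figure D2:**
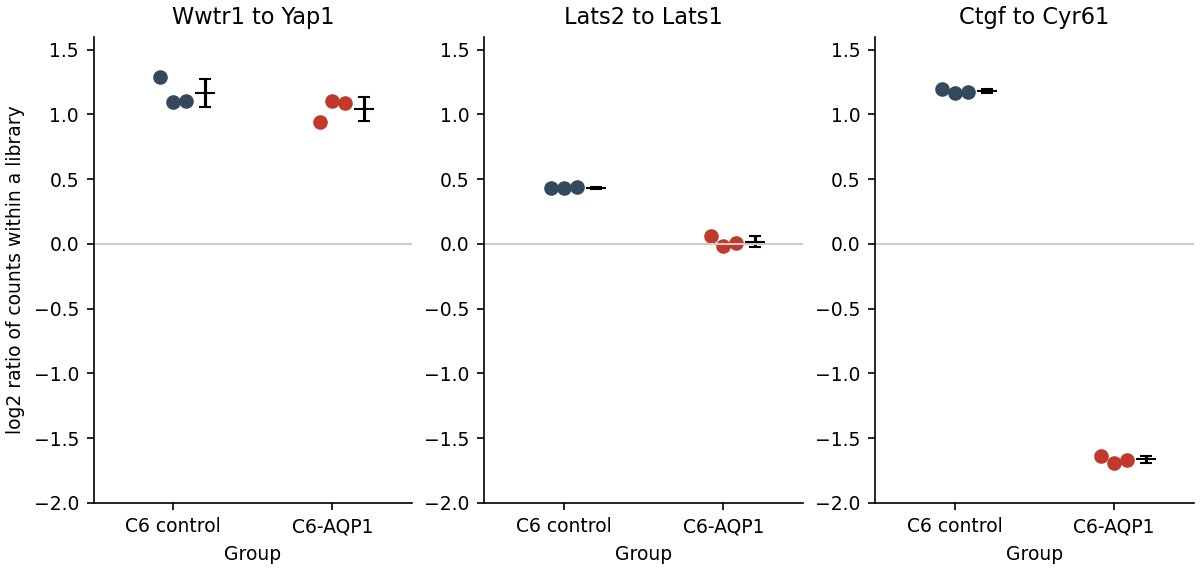
Log2 ratio of the counts of 2 genes within each library, for Wwtr1 to Yap1, Lats2 to Lats1 and Ctgf to Cyr61. Points are libraries, with the group mean and its SD (n = 3) as black bars beside them. The Ctgf to Cyr61 ratio has a mean of 1.18 in C6 control and -1.67 in C6-AQP1 cells, while the points of the Wwtr1 to Yap1 ratio overlap.

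Of the 7 kinases and factors among the members, Tead1 had the largest log2 fold change. Tead1 (ENSRNOG00000015488), which encodes a DNA-binding partner of YAP and TAZ, had 39.2, 39.5 and 41.2 normalized CPM in C6 control replicates 1, 2 and 3 and 60.1, 62.1 and 64.3 CPM in the C6-AQP1 replicates. The groups were well apart. The log2 fold change was 0.64 with a standard error of 0.04 (adjusted p = 7.3e-13, edgeR quasi-likelihood test), a 1.56-fold rise, and 32.8% of all genes changed more.

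The effectors themselves rose by small amounts. Yap1 (ENSRNOG00000005933), which encodes YAP, had 39.8, 45.3 and 46.9 normalized CPM in C6 control replicates 1, 2 and 3 and 52.7, 50.2 and 52.3 CPM in the C6-AQP1 replicates. The nearest libraries of the groups were 3.30 CPM apart, and the shallow control replicate 1 was the lowest of all. The log2 fold change of Yap1 was 0.21 with a standard error of 0.05 (adjusted p = 7.3e-04, edgeR quasi-likelihood test). It was 0.15 without the shallow replicate 1 of both groups (adjusted p = 4.8e-04, same test).

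Wwtr1 (ENSRNOG00000016617), which encodes TAZ, had 97.1, 97.1 and 100.6 normalized CPM in C6 control replicates 1, 2 and 3 and 101, 108 and 111 CPM in the C6-AQP1 replicates. The groups barely parted, with 0.331 CPM between the lowest C6-AQP1 and the highest control library. The log2 fold change was 0.13 with a standard error of 0.03 (adjusted p = 0.00138, edgeR quasi-likelihood test), smaller in size than that of 84.5% of all genes. The gene that the files list as Taz has another identifier. RefSeq gives Taz as an older symbol of Tafazzin, an enzyme of mitochondrial lipids, so it was not counted as TAZ. The ratio of Wwtr1 to Yap1 counts was 2.44, 2.14 and 2.14 in C6 control and 1.92, 2.15 and 2.13 in C6-AQP1 replicates 1, 2 and 3. The groups overlapped in this ratio, and their means differed by -0.12 on the log2 scale (exact permutation test, two-sided, p = 0.30, where 0.10 is the smallest value possible). It was -0.06 without C6-AQP1 replicate 1 and -0.05 without C6 control replicate 1.

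Of the kinases and their scaffold, Stk3 and Lats2 were lower and Lats1 and Nf2 higher in C6-AQP1 cells. Stk3 (ENSRNOG00000011278), which encodes MST2, an upstream kinase, had 50.9, 51.7 and 50.3 normalized CPM in C6 control replicates 1, 2 and 3. In the C6-AQP1 replicates it had 36.0, 38.4 and 36.8 CPM. The groups were 11.9 CPM apart at their nearest libraries. The fall was 1.37-fold, a log2 fold change of -0.45 with a standard error of 0.04 (adjusted p = 3.4e-10, edgeR quasi-likelihood test), and 47.6% of all genes changed more. Stk4, which encodes the related kinase MST1, is not a member and was named after its value was seen. It was slightly higher, with means of 27.0 CPM in C6-AQP1 and 24.0 CPM in C6 control cells. Its log2 fold change was 0.17 (adjusted p = 0.00679, same test). Nf2 (ENSRNOG00000007948), which encodes merlin, had 98.9, 98.5 and 102.6 CPM in C6 control cells and 104, 111 and 112 CPM in C6-AQP1 cells. The lowest C6-AQP1 library was only just above the highest control library. The log2 fold change of Nf2 was 0.13 with a standard error of 0.03 (adjusted p = 7.3e-04, same test), smaller in size than that of 84.3% of all genes.

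The LATS kinases, which phosphorylate YAP and TAZ directly, went in opposite directions. Lats1 (ENSRNOG00000014916) had 89.2, 91.4 and 91.9 normalized CPM in C6 control replicates 1, 2 and 3 and 103, 113 and 112 CPM in the C6-AQP1 replicates. The groups did not overlap, and the log2 fold change was 0.27 with a standard error of 0.03 (adjusted p = 1.8e-07, edgeR quasi-likelihood test). Lats2 (ENSRNOG00000056343), which is itself a known target of YAP, had 120.2, 123 and 125 CPM in C6 control cells and 107, 112 and 112 CPM in C6-AQP1 cells. Here the control libraries were the higher ones. The log2 fold change of Lats2 was -0.15 with a standard error of 0.03 (adjusted p = 3.9e-05, same test), and it shrank to -0.09 with library size alone as the scaling (adjusted p = 0.00270). The ratio of Lats2 to Lats1 counts was 1.35, 1.35 and 1.36 in C6 control replicates 1, 2 and 3 and 1.04, 0.987 and 1.00 in the C6-AQP1 replicates. This ratio was 1.34-fold lower in C6-AQP1 cells without overlap (difference of -0.42 on the log2 scale, exact permutation test, two-sided, p = 0.10, the smallest possible). Lats1 was higher and Lats2 lower in every C6-AQP1 library, so their ratio had to part the groups. The p of the ratio therefore adds nothing to the values of the genes.

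**Figure D3:**
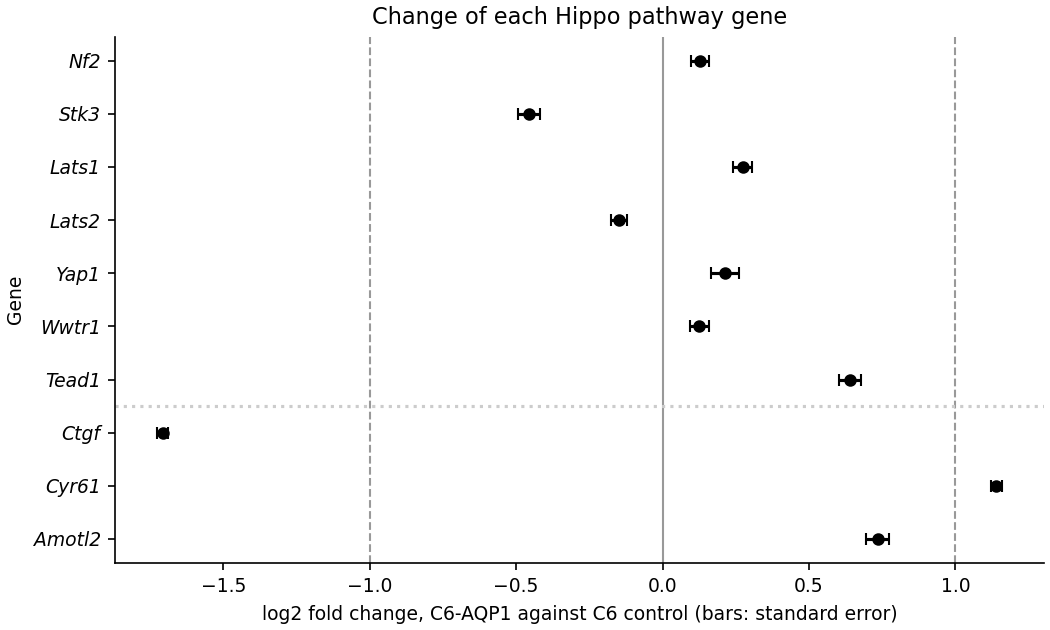
Log2 fold change of each gene between C6-AQP1 and C6 control cells, with bars for the standard error. The solid line marks no change, the dashed lines 2-fold, and the dotted line parts the kinases and factors above from the targets below. Ctgf at -1.71 and Cyr61 at 1.14 lie beyond the 2-fold lines on opposite sides, and the other 8 genes lie within them.

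**Figure D4:**
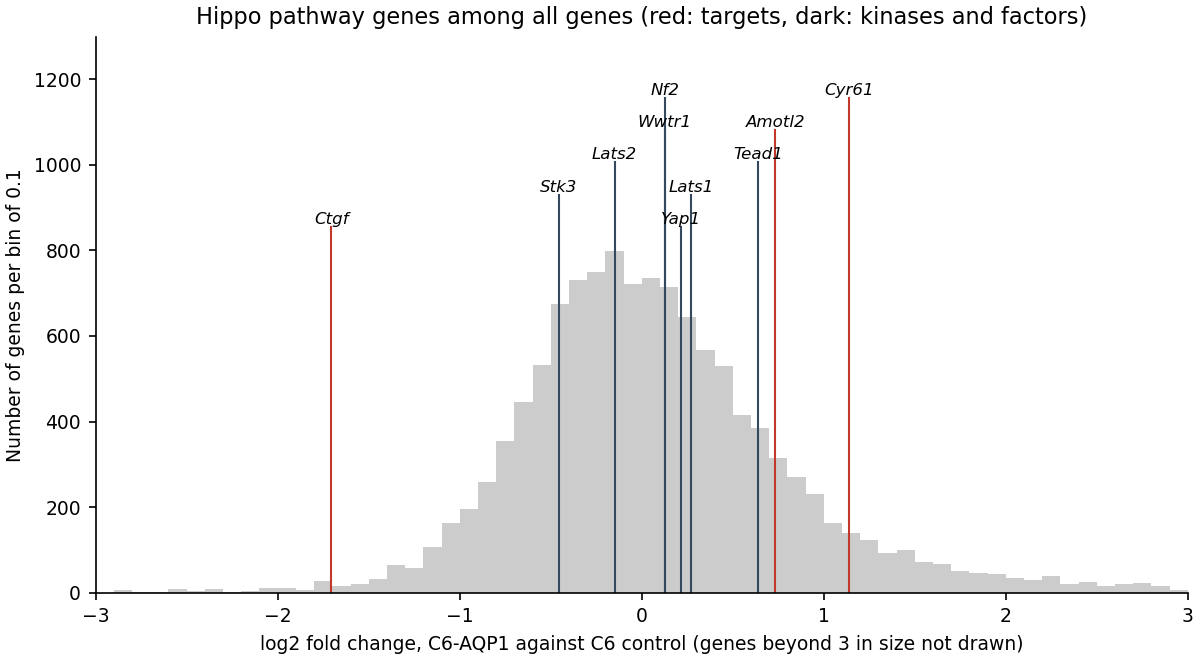
Number of genes per bin of 0.1 in log2 fold change between C6-AQP1 and C6 control cells, with the 10 genes marked by lines (red for targets, dark for kinases and factors). The kinases and factors lie in the body of the distribution, Tead1 at 0.64 at its upper side, while Ctgf at -1.71 lies in the lower tail. The heights of the lines carry no value.

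Of 10 listed YAP, TAZ, TEAD and VGLL genes, 7 were measured, of which 6 rose, the members Yap1, Wwtr1 and Tead1 among them, and 1 fell. The TEAD genes did not move as one, since Tead1 and Tead3 rose and Tead4 fell. The median log2 fold change was 0.21, beside 0.00 over all genes, of which 40.8% rose and 40.7% fell. Like the members, this and the other lists were chosen with results of these data known, and their counts are descriptions. Tead3, another TEAD factor, had 28.7, 30.9 and 29.3 normalized CPM in C6-AQP1 replicates 1, 2 and 3 and 16.2, 15.3 and 17.1 CPM in the C6 control replicates, a log2 fold change of 0.88 (adjusted p = 3.9e-12, edgeR quasi-likelihood test). Tead4, a further TEAD factor, was the gene that fell, from 87.1 ± 1.53 to 68.9 ± 1.44 CPM (SD, n = 3), which is -0.33 as a log2 fold change. Vgll4, which competes with YAP for TEAD factors, rose from 24.0 ± 0.996 to 43.6 ± 0.0775 CPM (SD, n = 3), which is 0.85 as a log2 fold change (adjusted p = 4.8e-14, same test). Vgll3, a TEAD cofactor, had a log2 fold change of 0.19.

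A list of 22 genes known to respond to YAP and TAZ, which includes the 3 targets and Lats2, went both ways. Of 19 measured, 10 rose, 6 fell and 3 missed the threshold, with a median log2 fold change of 0.22, where 40.8% of all genes rose and 40.7% fell. Above 2-fold, 3 were higher and 2 lower, beside 9.74% and 4.35% of all genes. Named here after their values were seen, the genes that did not pass were Nuak2, with a log2 fold change of 0.22 (adjusted p = 0.0916), Fjx1 with -0.13 (adjusted p = 0.622) and Crim1 (adjusted p = 0.921). Igfbp3, a binding protein of insulin-like growth factors, had the largest change of the list. It had 176, 173 and 173 normalized CPM in C6 control replicates 1, 2 and 3 and 28.8, 30.8 and 29.9 CPM in the C6-AQP1 replicates, a log2 fold change of -2.54 with a standard error of 0.03 (adjusted p = 2.3e-24, edgeR quasi-likelihood test). The list thus held 2 large falls, those of Igfbp3 and Ctgf. F3, the tissue factor that starts blood clotting, and Axl, a receptor tyrosine kinase, fell with log2 fold changes of -0.51 and -0.27. On the other side, Tgfb2, a ligand of the TGF-beta receptors, rose 2.29-fold, from 39.9 ± 0.515 to 91.2 ± 1.91 CPM (SD, n = 3). Rbms3, an RNA-binding protein, rose from 7.02 ± 1.31 to 14.6 ± 1.09 CPM (SD, n = 3), which is 1.01 as a log2 fold change. Of the 22 genes, 15 had a promoter in the RefSeq table, and 5 of these held GGAATG or CATTCC. Of all 33469 promoters, 12.1% held at least 1 match. The 5 included the members Ctgf, Cyr61 and Amotl2, whose promoters are shown above and are counted here again. The 5 were 3 of 7 genes that rose, 1 of 3 that fell and 1 of 3 that did not pass, with the other 2 not listed in the count files.

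**Figure D5:**
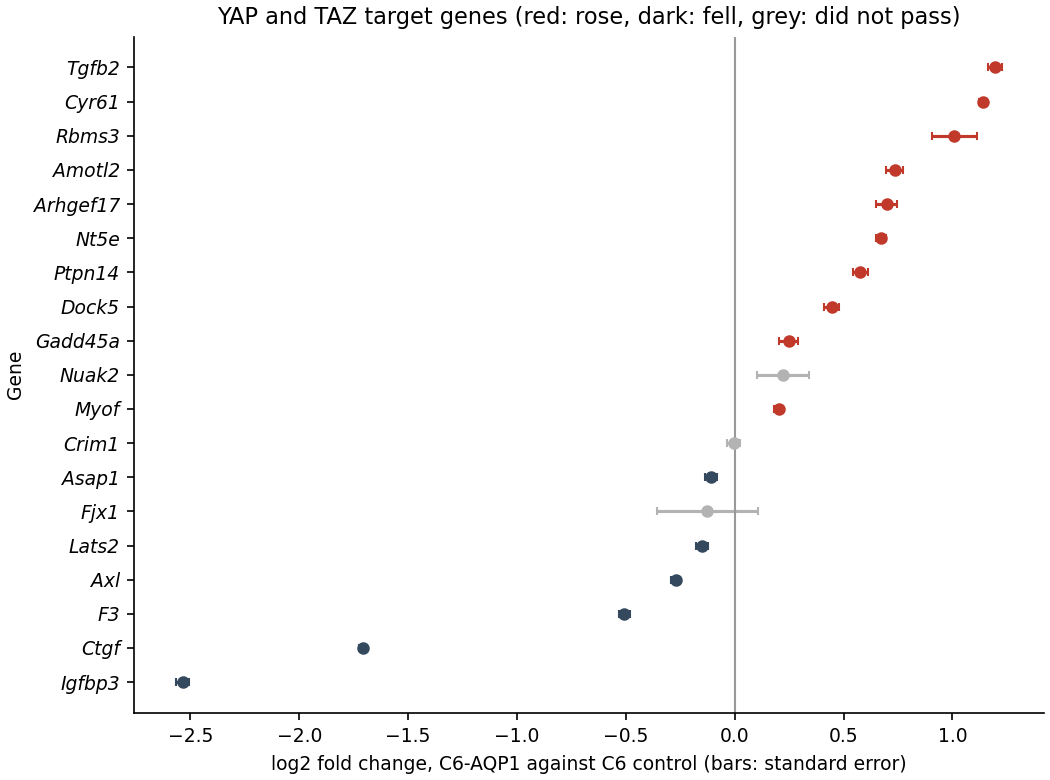
Log2 fold change between C6-AQP1 and C6 control cells of the 19 measured YAP and TAZ target genes, with bars for the standard error. Red marks the 10 genes that rose, dark blue the 6 that fell and grey the 3 that did not pass. Igfbp3 at -2.54 and Ctgf at -1.71 stand apart at the lower end, and Tgfb2 is at the upper end.

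The CCN family, to which Ctgf and Cyr61 belong, had 3 measured genes of 6, of which 1 rose and 2 fell. Of all genes, 40.8% rose and 40.7% fell. The members Ctgf and Cyr61 are counted here again. The third was Nov, a secreted CCN protein known to restrain the growth of glioma cells. It had 4.89, 5.37 and 5.98 normalized CPM in C6 control replicates 1, 2 and 3 and 2.51, 2.13 and 2.77 CPM in the C6-AQP1 replicates, a log2 fold change of -1.15 with a standard error of 0.13 (adjusted p = 7.8e-08, edgeR quasi-likelihood test). Nov thus went down with Ctgf and Cyr61 went up, and the other CCN genes were not listed.

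In the kinase module, 14 of 20 measured genes rose and 6 fell, beside 40.8% and 40.7% of all genes, with a median log2 fold change of 0.19. The falls included Stk3 and Lats2, and also Wwc2, a KIBRA-type scaffold that helps activate the LATS kinases, with 97.3 CPM against 128 CPM in control cells and a log2 fold change of -0.40. Map4k3, a kinase that can act on LATS beside MST2, had a log2 fold change of -0.20. Of the rises, Map4k2 had the largest log2 fold change at 1.34, at a low level of 4.66 CPM against 1.82 CPM in control cells. Taok1, a kinase that activates the MST kinases, had 145, 142 and 142 normalized CPM in C6-AQP1 replicates 1, 2 and 3 and 75.0, 73.5 and 73.3 CPM in the C6 control replicates, a log2 fold change of 0.95 (adjusted p = 2.0e-18, edgeR quasi-likelihood test). Mink1 and Stk38l, kinases of the MAP4K and NDR families, had 0.65 and 0.66 on the same scale.

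Genes of cell junctions and polarity that feed into the pathway rose in 12 of 16 measured cases and fell in 2, beside 40.8% and 40.7% of all genes, with a median log2 fold change of 0.30. The rises included the member Amotl2 and also Ptpn14, named after its value was seen, and both genes stand in the target list too. The junction scaffold Tjp1 had the largest rise at 0.83, going from 259 ± 3.78 to 460.5 ± 7.72 CPM (SD, n = 3). The angiomotin Amotl1, a relative of Amotl2, had 60.3, 65.5 and 62.1 normalized CPM in C6-AQP1 replicates 1, 2 and 3 and 35.3, 35.9 and 37.3 CPM in the C6 control replicates, a log2 fold change of 0.79 (adjusted p = 3.8e-14, edgeR quasi-likelihood test). Fat4, a large cadherin upstream of the pathway, had 0.76 on this scale. The falls were those of the polarity genes Patj and Pard3, with log2 fold changes of -0.45 and -0.13, of which the latter did not pass with library size alone as the scaling. Scrib and Llgl1, polarity genes named after their values were seen, did not pass (adjusted p = 0.447 and 0.121).

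Inhibitors of the kinases were divided, with 4 rises, 6 falls and 3 that did not pass among 13 measured genes, and a median log2 fold change of -0.04, where 40.8% of all genes rose and 40.7% fell. With library size alone as the scaling, 6 rose and 6 fell. Limd1, an Ajuba-type protein that holds back the LATS kinases, rose from 183 ± 4.55 to 339 ± 2.67 CPM (SD, n = 3), which is 0.89 as a log2 fold change (adjusted p = 2.8e-19, edgeR quasi-likelihood test). Wtip, a relative of Limd1 at a low level of 2.49 CPM in control cells, fell by 0.62 on the log2 scale. In the STRIPAK phosphatase complex, which turns off the MST kinases, the scaffold Strn and the adaptor Slmap had log2 fold changes of 0.81 and 0.63 and Strn3 of 0.18. Its parts Sike1 and Ppp2r1a had -0.47 and -0.43. Strip2, Strn4 and Fgfr1op2, of the same complex and named after their values were seen, did not pass (adjusted p = 0.0714, 0.809 and 0.237).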

How the data were processed

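RNA-seq libraries of C6-AQP1 (3) and C6 control cells (3) were used. Per the study's methods and the processing notes of the submitters, reads were checked with FastQC 0.11.2, trimmed with Trimmomatic 0.36, aligned to rn6 with STAR 2.5.1b and quantified with RSEM 1.2.29. The annotation was not named in the sources used here. As deposited by the authors, the values are expected counts, estimated per gene without normalization, for genes with a mean TPM above 1 in a group. Members were found by the symbol after the identifier. Counts were rounded and TMM-scaled, the groups were compared without covariates with edgeR 4.0.16 (robust quasi-likelihood test, R 4.3.3), and p-values were adjusted over all 12121 genes by the Benjamini-Hochberg method. A gene rose or fell at an adjusted p under 0.05. CPM values are normalized by TMM. The standard error was taken from the log2 fold change and the test statistic. Transcript lengths were not used, so levels were not compared between genes. The common biological CV was 2.97%. Replicate libraries differed by more than sampling noise (chi-square per degree of freedom 2.15 to 4.29), and each library was counted separately. This excess cannot tell separate cultures from repeat preparations of 1 culture. Members and lists were chosen with earlier results of these data known. Besides the members, the genes named were all CCN, TEAD and VGLL genes measured and up to the 4 largest rises and falls of each other list whose higher group had 50 or more counts in all libraries, except 1 gene that is not reported here. Alternatives used DESeq2 1.42.0, limma-voom 3.58.1, other scalings, a count filter, a replicate block and fewer libraries. The fits were tested on simulated data in which few genes changed, unlike here, where 81.5% of all genes passed. The simulation thus did not test the scaling in a setting like this one. The ratios and the promoter search were not part of it.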

Additional observations from a re-analysis of the deposited data

How the results depend on the processing

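All 10 members kept their direction and an adjusted p under 0.05 under each of the 15 alternatives. The highest adjusted p was 0.0215, for Wwtr1 without C6-AQP1 replicate 3. The log2 fold change ranged from -1.71 to -1.65 for Ctgf and from 1.13 to 1.19 for Cyr61. The near-even split of rises and falls over all genes, given beside each list, depended in part on the scaling. Scaling by library size alone moved the median log2 fold change of all genes from 0.00 to 0.05. It also moved the share of rises among the genes that passed from 50.1% to 54.2%. With it, 13 genes in place of 12 rose and 1 in place of 2 fell among the junction and polarity inputs, where Pard3 (log2 fold change -0.07, adjusted p = 0.0633) was not called. It also gave 6 rises in place of 4 among the inhibitors of the kinases, and 11 rises and 5 falls in place of 10 and 6 among the targets. Without C6-AQP1 replicate 3, 12 genes of the kinase module rose in place of 14, and 11 of the junction and polarity inputs in place of 12. Under DESeq2, and also without C6 control replicate 3, 11 of the junction and polarity inputs rose. Without C6 control replicate 2, 5 inhibitors of the kinases rose in place of 4. Deviations of same-numbered libraries of the groups had weak correlations (0.13, -0.01 and 0.07 for numbers 1, 2 and 3). Libraries of unlike number had -0.13 to 0.11. The value for number 1, the shallow libraries, was thus the highest. The labels name no pairs, and the numbers were not taken as pairs. With a replicate block, 7 members rose and 3 fell, as without it, and 5006 genes rose and 4976 fell in all. Each member had a lower adjusted p with the block than without it. For the ratios, 3 libraries a group cannot give an exact p under 0.10.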
